A study of Mus musculus with 6 samples.

Results

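Endothelin signalling and the transcription factor genes that act with it in the facial arches were examined in palatal mesenchyme of Meis2 mutant mouse embryos. The group held 8 genes, chosen by gene symbol: the ligands Edn1 and Edn3, the converting enzyme Ece1, the receptors Ednra and Ednrb, and the transcription factor genes Gsc, Hand1 and Hand2. All 8 symbols were found among the 24394 gene rows of the deposited comparison. The study compared anterior palatal mesenchyme of Wnt1Cre;Meis2f/f embryos (3 libraries) with that of wildtype embryos (3 libraries) at E12.5, on the strain C57BL/6, with the palatal epithelium removed by Dispase II. Wnt1Cre is a recombinase transgene that acts in cells of the neural crest lineage, so the floxed Meis2 allele is targeted in the palatal mesenchyme, and also in other crest-derived cells of the tissue, such as Schwann cells and the pericytes and smooth muscle of facial vessels, but not in endothelium, skeletal muscle or blood cells. The labels list no library that carried Wnt1Cre alone.

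Endothelins are small secreted peptides that are cut from larger precursors, in the last step by endothelin converting enzymes, and that act through the G protein-coupled receptors Ednra and Ednrb. In the mouse mandibular arch, Edn1 from the epithelium acts on Ednra in neural crest cells and gives the arch its lower jaw identity, in part by inducing Dlx5, Dlx6 and Hand2. Edn3 and Ednrb are best known in the mouse for the migration and survival of melanocyte precursors and enteric neural crest cells. The anterior palate derives from the maxillary prominence, where this lower jaw programme is normally little used.

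The deposited files hold a mean over libraries for each gene (the base mean, in normalised reads) and the authors' log2 fold change with its test, but no value per library. The reads of every library were worked out from the base means of a 6-library table and of a 4-library table that holds 4 of the same libraries, and a unique set of whole reads was found for 20140 of 20970 genes, 96.0%, including all 8 members. Libraries are called A, B and C within each genotype. The letters do not stand for replicate numbers, and library C of each genotype is the library missing from the 4-library table. The files do not name the direction of their fold changes. Libraries were read as mutant on the side where Meis2, the targeted gene, was lower, and all statements of higher or lower depend on this. Meis2 had 1250, 1218 and 1378 normalised reads in mutant libraries A, B and C, against 1526, 1695 and 1549 in wildtype libraries A, B and C. Its log2 fold change in the authors' deposited 6-library table was -0.28 (SE 0.0917, adjusted p = 0.0743), and in the 4-library table it was -0.33 (adjusted p = 0.0213), so Meis2 itself was under an adjusted p of 0.05 in the 4-library table and not in the 6-library table. The recovered reads summed to between 5935649 and 10732670 per library. The 7 cranial mesenchyme markers had base means from 103 for Msx1 to 16535 for Pdgfra, in a tissue labelled as palatal mesenchyme. All 8 epithelial markers also had a base mean of at least 10, with 1095 to 1482 normalised reads in sum in mutant libraries and 992 to 1564 in wildtype libraries. The most abundant of these, Cdh1, had a log2 fold change of 0.04 (adjusted p = 0.960 in the authors' deposited table).

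Hand2 and Gsc were lower in the mutant palate, while no ligand or receptor gene, nor the converting enzyme gene, was called as changed. Hand2 averaged 1.42 ± 0.597 normalised reads in mutant libraries and 21.6 ± 6.10 in wildtype libraries (SD, n = 3 each), a ratio of 0.0655. Gsc averaged 94.5 ± 16.0 normalised reads in mutant libraries and 202 ± 29.7 in wildtype libraries (SD, n = 3 each), a ratio of 0.467. These were 2 members called lower and 0 called higher, of the 6 members that have an adjusted p in the authors' deposited 6-library table (DESeq2, adjusted p under 0.05). At an unadjusted p under 0.05, 3 members passed, the other being Ednrb. Among all 14942 genes with an adjusted p there, 2.90% were called, 1.16% lower and 1.75% higher in mutants. The 4-library table called the same 2 members, against 2.30% of all genes with an adjusted p there, 0.990% lower and 1.31% higher. The RNA came from tissue pieces, in which fewer cells of a type and less RNA per cell cannot be told apart.

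**Figure D1:**
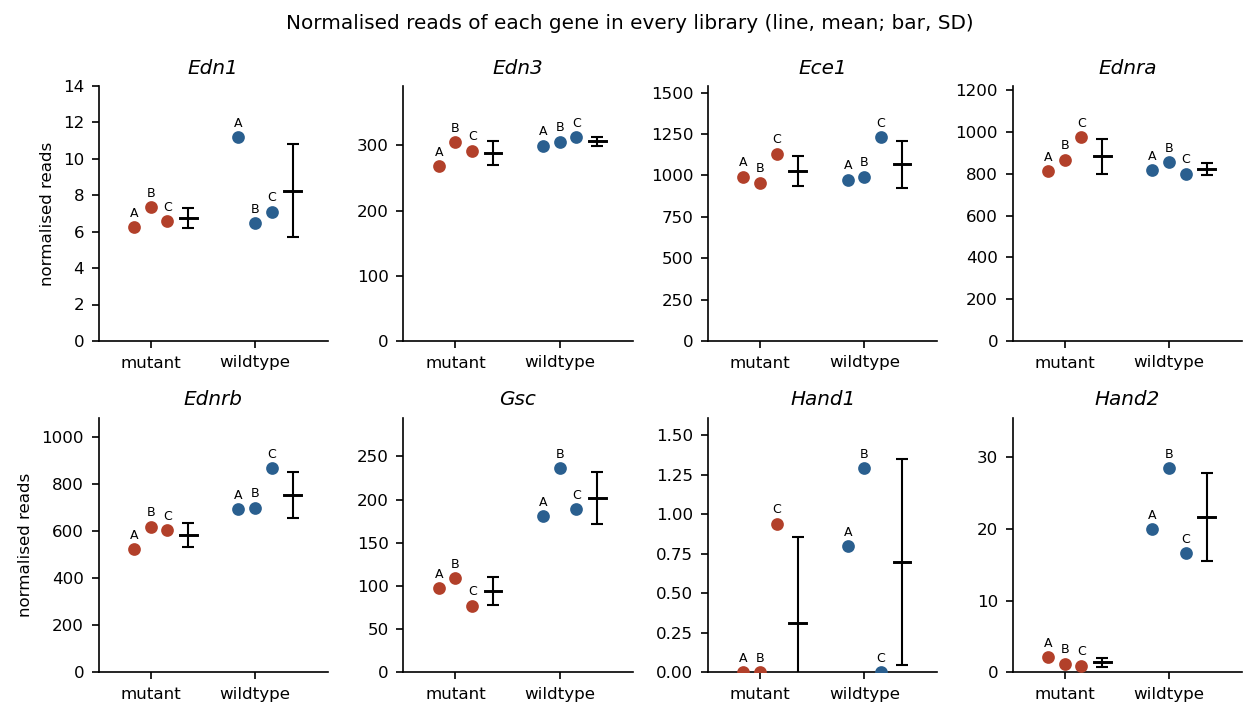
Normalised reads (vertical axes, each starting at 0) of the 8 genes in each library; points are libraries A, B and C of the mutant (red, left) and wildtype (blue, right) embryos, with the mean (line) and SD (bar) beside them. The mutant points of Hand2, Gsc and Ednrb all lie below the wildtype points, whereas those of Edn1, Edn3, Ece1, Ednra and Hand1 overlap with them.

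Among the ligands, Edn1, which lies on chromosome 13 (42301476 to 42307990, GRCm38.p6), was close to the lower limit of detection. It had 9, 6 and 7 reads in mutant libraries A, B and C, against 14, 5 and 6 reads in wildtype libraries A, B and C. Scaled for depth these were 6.26, 7.34 and 6.59 normalised reads in mutant libraries, against 11.2, 6.46 and 7.10 in wildtype libraries. Wildtype library A was the highest and the genotypes overlapped. The summed reads gave a mutant to wildtype ratio of 0.762, with an exact 95% interval of 0.409 to 1.41 that covers counting error only, so a change by less than that range was not detectable at this depth. The authors' deposited table gives -0.05 as the log2 fold change of Edn1 (SE 0.110) with an unadjusted p of 0.631 and no adjusted p. Edn1 comes from the epithelium in the mandibular arch, and the palatal epithelium was removed here. These reads therefore do not give the Edn1 level of the whole palate.

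Edn3, the ligand that acts through Ednrb, lies on chromosome 2 (174760619 to 174784042) and was far more abundant. Its values were 268, 305 and 292 normalised reads in mutant libraries A, B and C, against 299.6, 306 and 313 in wildtype libraries A, B and C. Mutant library A was the lowest of all, and mutant library B fell inside the wildtype range. The log2 fold change was -0.08 in the authors' deposited table (SE 0.113, adjusted p = 0.915), with a 95% interval of -0.30 to 0.15.

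Ece1, which encodes the endothelin converting enzyme of the embryo and lies on chromosome 4 (137862237 to 137965229), was the member with the most reads. Mutant libraries A, B and C held 993, 955 and 1131 normalised reads, against 975, 992 and 1232 in wildtype libraries A, B and C. Library C was the highest of each genotype, and the ranges overlapped almost whole. The deposited log2 fold change by the authors was -0.05 (SE 0.106, adjusted p = 0.941, 95% interval -0.25 to 0.16).

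Ednra, the receptor for Edn1 on neural crest cells, lies on chromosome 8 (77663029 to 77724452). Its values were 812, 868 and 977 normalised reads in mutant libraries A, B and C, against 817, 855 and 801 in wildtype libraries A, B and C. Mutant library C was the highest, while mutant library A fell inside the wildtype range. In the authors' deposited table its log2 fold change was 0.09 (SE 0.0987, adjusted p = 0.856), with a 95% interval of -0.10 to 0.28, and in the 4-library table, which lacks that library, it was 0.01.

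Ednrb, the receptor that binds all endothelins alike, lies on chromosome 14 (103814615 to 103844508) and had lower values in every mutant library. Mutant libraries A, B and C held 524, 619 and 604 normalised reads, against 693, 699 and 866 in wildtype libraries A, B and C. The highest mutant library stayed below the lowest wildtype library, and wildtype library C stood above its group. Such a separation with the mutant lower was seen for 8.93% of the 13759 genes with recovered reads whose base mean was 10 or more. The mutant to wildtype ratio of the means was 0.774. In the authors' deposited 6-library table Ednrb had a log2 fold change of -0.31 (SE 0.110, 95% interval -0.53 to -0.10) and was not called (adjusted p = 0.114), and the 4-library table gave -0.23 (adjusted p = 0.495). Over the 10 alternatives with a fold change of their own, the adjusted p ranged between 0.145 and 0.497. Changes of the filter before adjustment are not in this range. Schwann cells, melanocytes and vessel endothelium also express Ednrb. The 11 Schwann cell and melanocyte markers summed to 1332 to 1566 normalised reads in mutant libraries and 1139 to 1509 in wildtype libraries, with Tyr, a melanocyte pigment enzyme, at a base mean of 0.689. Kit, a receptor of melanocyte precursors that was called higher, held a large part of that sum, and the other 10 markers summed to 724, 757 and 837 normalised reads in mutant libraries A, B and C, against 757, 793 and 1053 in wildtype libraries A, B and C. Sox10, a factor of that lineage, had 18.1, 15.9 and 19.8 normalised reads in mutant libraries A, B and C, against 37.6, 41.3 and 27.2 in wildtype libraries A, B and C. These Sox10 values did not overlap (adjusted p = 0.217 in the authors' deposited table). Fabp7, a marker of glial precursors, had 29.2, 46.5 and 33.9 normalised reads in mutant libraries A, B and C, against 52.7, 54.2 and 101 in wildtype libraries A, B and C. It was lower without overlap too and was not called (adjusted p = 0.114 in the authors' deposited table). The 8 endothelial markers summed to 6344 to 7435 normalised reads in mutant libraries and 5985 to 7489 in wildtype libraries, and none was called there by DESeq2, nor did any have an unadjusted p under 0.05. The most abundant of them, Kdr, had a log2 fold change of 0.05 (adjusted p = 0.936 in the authors' deposited table). Their part in the Ednrb values was not tested.

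Gsc encodes a homeodomain repressor that is needed in the mouse for parts of the jaw, tympanic ring and nasal region. It lies on the minus strand of chromosome 12 (104471209 to 104473236). Mutant libraries A, B and C held 140, 89 and 82 Gsc reads, against 227, 183 and 160 in wildtype libraries A, B and C. After scaling these were 97.4, 109 and 77.1 normalised reads in mutant libraries, against 181, 236 and 189 in wildtype libraries. Every mutant library was below every wildtype library, with the highest mutant value well short of the lowest wildtype value. Of the 13759 genes with recovered reads and a base mean of 10 or more, 8.93% separated with the mutant lower. The summed reads gave a mutant to wildtype ratio of 0.472, with an exact 95% interval for counting error of 0.410 to 0.543. In the authors' deposited table Gsc fell by 0.77 on the log2 scale (SE 0.138, adjusted p = 3.50e-06), and by 0.57 in the 4-library table (SE 0.142, adjusted p = 0.00527). A limma fit on log2 of the normalised reads plus 1 gave -1.10 (SE 0.168, adjusted p = 0.00599), in a fit that called 2.26% of all 13759 genes, 0.901% lower and 1.36% higher. With each library left out in turn, the limma value lay between -1.20 and -0.96, and Gsc was called in 6 of 6 such fits. Over the 10 alternatives with a fold change of their own, the adjusted p of Gsc ranged from 5.74e-06 to 0.0327. An exact permutation test of the 3 mutant and 3 wildtype values gave p = 0.1 (two-sided), the smallest that 3 against 3 can give.

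Hand2 encodes a basic helix-loop-helix factor that specifies the lower jaw and also acts in the heart, limb and sympathetic ganglia. It lies on the plus strand of chromosome 8 (57320983 to 57324517). Mutant libraries A, B and C held 3, 1 and 1 Hand2 reads, against 25, 22 and 14 reads in wildtype libraries A, B and C. Scaled for depth these were 2.09, 1.22 and 0.941 normalised reads in mutant libraries, against 19.98, 28.4 and 16.6 in wildtype libraries. Nearly all Hand2 reads of the study thus came from the wildtype libraries, 61 reads against 5 in the mutant libraries. The ratio of these sums, scaled for depth, was 0.0709, and its exact 95% interval for counting error ran from 0.0222 to 0.175. Among 2107 genes of similar level, with base means from 5 to 20, 5.84% had every mutant library below every wildtype library.

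The fold change that the authors deposited for Hand2 is moderated, that is shrunk toward 0, and was much nearer to 0 than the log2 ratio of the means, -3.93. Hand2 fell by 0.58 (log2) in the authors' deposited 6-library table (SE 0.121, adjusted p = 1.87e-04). The 4-library table gave -0.29 (SE 0.0897, adjusted p = 0.0456), although the ratio of the mean normalised reads in those 4 libraries was 0.0684, close to the 0.0655 of all 6. The limma fit gave -3.22 (SE 0.407, adjusted p = 0.00180), and -3.54 with a pseudocount of 0.5 in place of 1. With each library left out in turn the limma value lay between -3.41 and -3.02, called in 6 of 6 fits. Over the 10 alternatives with a fold change of their own, the adjusted p of Hand2 ranged from 2.93e-04 to 0.0456. The exact two-sided permutation test gave p = 0.1, again the smallest possible. In GENCODE M21, Hand2 shares 461 of its 2351 exon bases with Hand2os1, a noncoding RNA gene on the opposite strand. No row under the symbol Hand2os1 was found in the deposited comparison. The sources used here do not give whether reads were counted by strand, so reads of the 2 genes over those bases cannot be told apart.

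**Figure D2:**
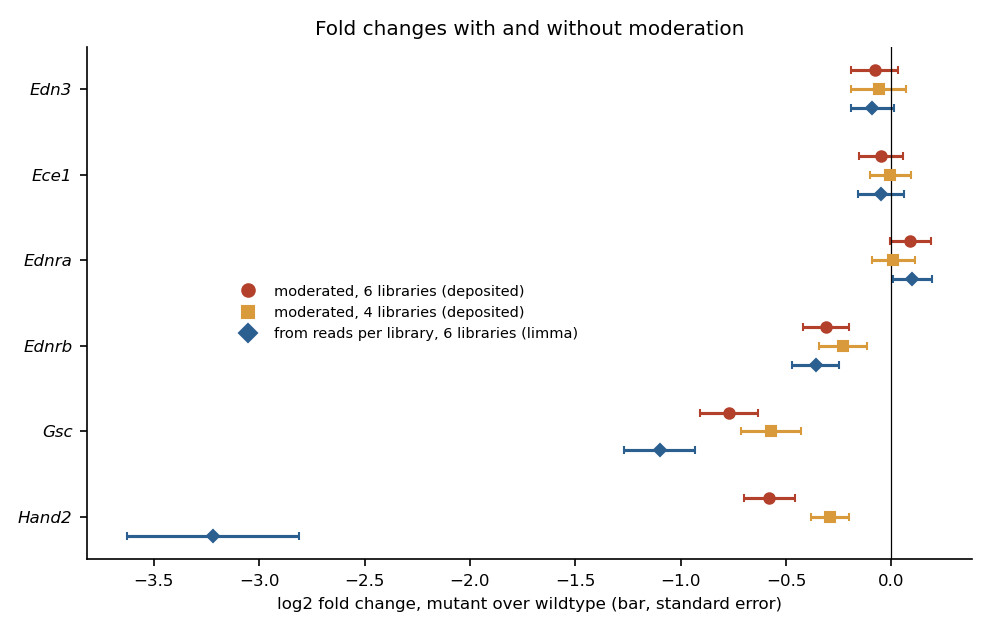
Log2 fold change, mutant over wildtype (horizontal axis), of the 6 genes whose base mean was 10 or more, as the authors deposited it for 6 libraries (circles) and 4 libraries (squares) and from the limma fit on normalised reads of 6 libraries (diamonds), with bars for the SE. For Hand2 the deposited -0.58 and -0.29 lie far from the limma value of -3.22, while for Ednrb the deposited -0.31 and the limma value of -0.36 lie close together.

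The promoters of the called genes are given because Hand2 and Gsc changed in the same direction; they run from 250 bases before to 50 bases after the gene start and come from RefSeq (GRCm38.p6). E-boxes (CANNTG, read on both strands, where the letters are the same), to which basic helix-loop-helix factors such as Twist1 and Hand2 bind, are in capitals.
Hand2, chr8:57320733-57321032, plus strand: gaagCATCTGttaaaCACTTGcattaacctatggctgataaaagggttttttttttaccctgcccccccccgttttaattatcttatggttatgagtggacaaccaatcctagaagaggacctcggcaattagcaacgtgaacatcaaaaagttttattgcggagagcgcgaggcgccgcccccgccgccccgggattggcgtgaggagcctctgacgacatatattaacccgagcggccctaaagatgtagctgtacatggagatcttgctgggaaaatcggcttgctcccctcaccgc
Gsc, chr12:104473187-104473486, minus strand: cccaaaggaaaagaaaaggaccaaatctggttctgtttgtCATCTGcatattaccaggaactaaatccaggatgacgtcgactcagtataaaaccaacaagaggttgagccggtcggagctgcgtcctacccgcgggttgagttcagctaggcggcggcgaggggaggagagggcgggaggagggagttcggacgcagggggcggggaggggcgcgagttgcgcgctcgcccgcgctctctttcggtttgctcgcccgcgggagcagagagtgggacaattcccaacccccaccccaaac
The Hand2 promoter held 2 E-boxes, CATCTG at position -246 and CACTTG at -235 relative to the gene start, and the Gsc promoter held CATCTG at -210. E-boxes occur in 72.3% of the 32851 RefSeq promoters of this length. The core of the Meis binding motif, TGACAG, was in neither promoter on either strand, and 19.2% of all promoters hold it. RefSeq promoters were found for 7 of the 8 members, the exception being Hand1. Among the other members, TGACAG was found in the promoter of the fourth of 4 Ece1 starts, at -194, and TAATCC, a motif bound by bicoid-type homeodomains such as that of Gsc, in the Ednrb promoter, at -25, against 7.1% of all promoters. These letters describe the windows and say nothing of binding.

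Hand1, a relative of Hand2 that marks the distal tip of the mandibular arch and lies on chromosome 11 (57828713 to 57832147), had 0, 0 and 1 reads in mutant libraries A, B and C, against 1, 1 and 0 reads in wildtype libraries A, B and C. With 3 reads in the whole study, no difference between genotypes was detectable at this depth. A count of 0 in a library allows up to 3 reads there.

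Read against genes of similar level, Hand2 stood at the low end. Of the 2101 genes with a base mean within 2-fold of that of Hand2, itself included, none ranked below it by log2 fold change in the authors' deposited 6-library table, and 9 of them were called, 4 of them lower. Gsc was the seventh lowest of 3511 such genes, with 0.171% below it, and Ednrb had 1.80% of 4791 genes below it. Edn1 had 20.3% of its own such genes below it, Edn3 35.3%, Ece1 45.7% and Ednra 85.8%.

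**Figure D3:**
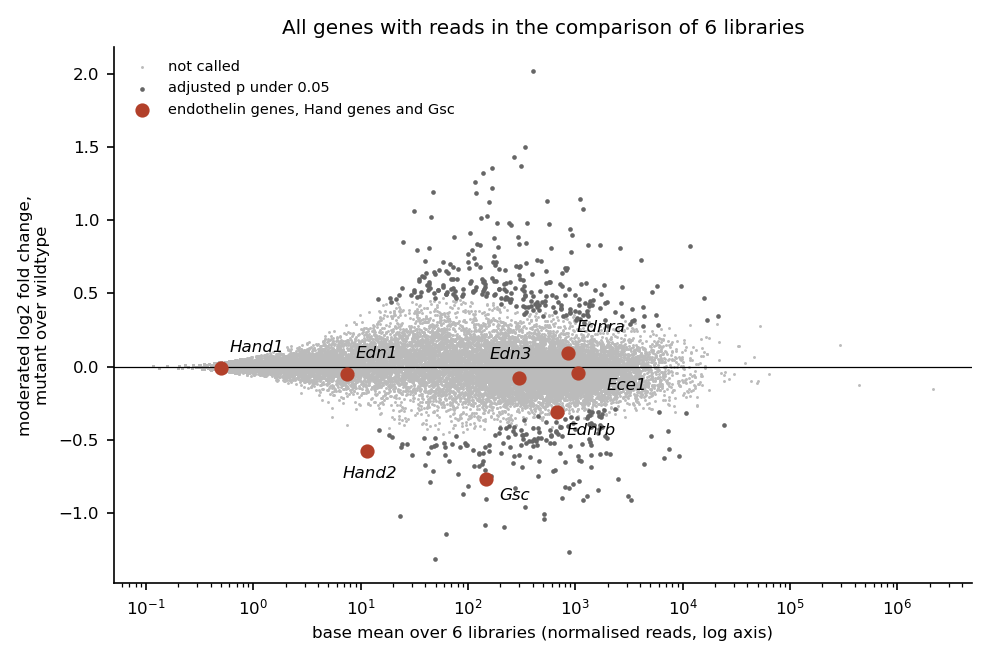
Deposited log2 fold change, mutant over wildtype, against the base mean in normalised reads (log axis) for all genes with reads in the 6-library table, with the 8 genes marked. Gsc at -0.77 and Hand2 at -0.58 lie toward the lower edge of the cloud for their level, and Ednrb at -0.31 lies inside it.

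Levels were compared between members per kilobase of exon (GENCODE M21). In mutant libraries Ece1 led with 194 normalised reads per kilobase, followed by Ednra at 162, Ednrb at 137, Gsc at 74.5, Edn3 at 70.1, Edn1 at 3.15, Hand2 at 0.603 and Hand1 at 0.157. In wildtype libraries the order was Ece1 at 201, Ednrb at 176, Gsc at 159.5, Ednra at 150.5, Edn3 at 74.5, Hand2 at 9.21, Edn1 at 3.86 and Hand1 at 0.349. The wildtype ranges of Ece1 and Ednrb, of Ednrb and Gsc, and of Gsc and Ednra overlapped, so the order within each of these pairs is not fixed by the 3 libraries. The ranges of Ece1 (184 to 233) and Ednrb (162 to 203) both lay above that of Ednra (146 to 156). From Ednra down to Hand1 the ranges were separate. In mutant libraries, neighbours in the order had separate ranges except for Gsc and Edn3 and for Hand2 and Hand1, which overlapped. In this tissue, from which the palatal epithelium was removed, both receptors were thus measured at levels far above those of the ligand Edn1. Edn1 of the epithelium itself was not measured. Gsc was at the level of the receptors in wildtype libraries but not in mutant libraries, where its range of 60.8 to 85.8 lay below the 123 to 145 of Ednrb.

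Other genes of the pathway and its targets were described in 6 lists. Outside the 8 members these held 57 genes in the table, 52 of them with an adjusted p, and 7 were called in the authors' deposited 6-library table, 4 lower and 3 higher in mutants. The corresponding share over all genes was the 2.90% given above. The 4-library table called 4 of the 7, Mme, Pou3f3, Twist1 and Id2, and limma on the 47 of these genes it could test called 3, Pou3f3, Nr2f2 and Id2. Without wildtype library A or without wildtype library B, limma called 0 of the 47, with 11 and 14 of them at an unadjusted p under 0.05.

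**Figure D4:**
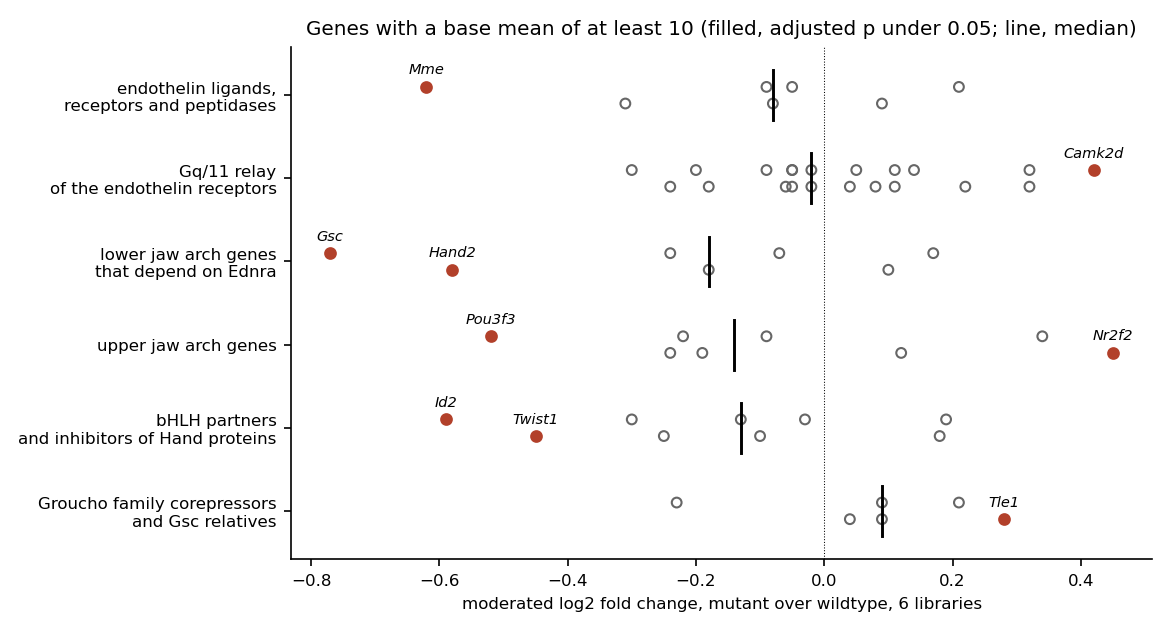
Deposited log2 fold change (6 libraries, mutant over wildtype) of each gene whose base mean was 10 or more in the 6 lists, with called genes filled and named and a line at each list's median. The list medians lie between -0.18 and 0.09, and the called genes range from Gsc at -0.77 to Nr2f2 at 0.45.

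Of the 7 endothelin ligand, receptor and peptidase genes whose base mean was 10 or more, 1 was called lower and 0 higher, with a median log2 fold change of -0.08, against -0.01 over all 14559 genes at that level. The called gene was Mme, which encodes neprilysin, a membrane peptidase that degrades endothelins and other small peptides. Mme fell by 0.62 (log2) in the authors' deposited table (SE 0.0754, adjusted p = 9.39e-14) and by 0.61 in the 4-library table (adjusted p = 7.66e-15). Its base mean of 6735 was also the highest of the list, too high for its reads per library to be worked out. The Gq/11 relay that carries the signal of the endothelin receptors inside the cell had 0 of 21 genes called lower and 1 higher, with a median of -0.02. That gene was Camk2d, a calcium-dependent kinase, with 507, 388 and 469 normalised reads in mutant libraries A, B and C, against 352, 307 and 296 in wildtype libraries A, B and C. The log2 fold change of Camk2d was 0.42 in the authors' deposited table (SE 0.118, adjusted p = 0.0167), but 0.32 with an adjusted p of 0.232 in the 4-library table. Itpr1, a calcium channel and the most abundant gene of the relay, had 0.14 (adjusted p = 0.721) in the authors' deposited table.

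The list of lower jaw genes that depend on Ednra in the mouse mandibular arch had 7 of 11 genes in the table at a base mean of at least 10, and the 2 that were called, both lower, were Gsc and Hand2. Its median log2 fold change was -0.18, in part from these members. Dlx5 and Dlx6, which act upstream of Hand2 in the mandibular arch, were close to the level of Hand2. Dlx5 had 8.35, 12.2 and 2.82 normalised reads in mutant libraries A, B and C, against 12.8, 18.1 and 13.0 in wildtype libraries A, B and C, and Dlx6 had 11.8, 7.34 and 1.88 in mutant libraries, against 13.6, 11.6 and 11.8 in wildtype libraries. Mutant library C was the lowest for both, and the mutant range of Dlx5 lay wholly below the wildtype range. Such a separation was seen for 5.84% of the 2107 genes with base means from 5 to 20. Neither was called, and the authors' deposited table gives them adjusted p-values of 0.692 and 0.789. Barx1, a homeobox gene of the proximal jaw and the most abundant of the list, had a log2 fold change of 0.17 there (adjusted p = 0.731).

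Among 8 genes of upper jaw arch mesenchyme, 1 was called lower and 1 higher, with a median of -0.14. Pou3f3, a POU factor of the maxillary arch, had 524, 528 and 446 normalised reads in mutant libraries A, B and C, against 717, 908 and 694 in wildtype libraries A, B and C. All mutant values were below the wildtype values, as for 8.93% of the 13759 genes with recovered reads and a base mean of 10 or more. Pou3f3 fell by 0.52 (log2) in the authors' deposited table (SE 0.113, adjusted p = 3.69e-04) and by 0.49 in the 4-library table (adjusted p = 0.00213). Nr2f2, a nuclear receptor of the maxillary arch, moved the other way, with 561, 646 and 644 normalised reads in mutant libraries A, B and C, against 439, 431 and 415 in wildtype libraries A, B and C. Nr2f2 rose by 0.45 in the authors' deposited table (SE 0.104, adjusted p = 0.00113), and had 0.38 with an adjusted p of 0.0538 in the 4-library table.

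Of 9 partners and inhibitors of Hand proteins, 2 were called lower and 0 higher, with a median of -0.13. Twist1, a basic helix-loop-helix factor of cranial mesenchyme that pairs with Hand2, had 1288, 1614 and 1062 normalised reads in mutant libraries A, B and C, against 2052, 2156 and 1640 in wildtype libraries A, B and C. Twist1 fell by 0.45 (log2) in the authors' deposited table (SE 0.120, adjusted p = 0.00859) and by 0.46 in the 4-library table (adjusted p = 4.65e-04), while limma gave an adjusted p of 0.0860. Id2, which binds the E proteins that Hand factors pair with, had 595, 587 and 455 normalised reads in mutant libraries A, B and C, against 936, 985 and 770.0 in wildtype libraries A, B and C. Id2 fell by 0.59 in the authors' deposited table (SE 0.115, adjusted p = 3.40e-05). Both genes separated the genotypes in all libraries, as did 8.93% of the 13759 genes with recovered reads and a base mean of 10 or more, with the mutant lower. The most abundant partner, the E protein gene Tcf12, had 0.18 (adjusted p = 0.437) in the authors' deposited table. Of 6 Groucho family corepressor genes, through which Gsc can repress, 0 were called lower and 1 higher, with a median of 0.09. Tle1 had 2189, 2114 and 2352 normalised reads in mutant libraries A, B and C, against 1754, 1775 and 1853 in wildtype libraries A, B and C. Its log2 fold change was 0.28 in the authors' deposited table (SE 0.0855, adjusted p = 0.0383), and 0.27 with an adjusted p of 0.0620 in the 4-library table. Tle4, the most abundant of the family, had 0.21 (adjusted p = 0.182).

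The genes most like the called members were taken as those with the nearest pair of log2 fold changes in the authors' deposited 6- and 4-library tables, which share libraries, among genes with a base mean within 2-fold. For Hand2 these were Fstl4, with -0.48 and -0.26, Otogl, with -0.47 and -0.22, and Ano4, with -0.42 and -0.18, of 2099 genes compared. They are near by the moderated values only. Their mutant to wildtype ratios of the means were 0.329, 0.311 and 0.372, against 0.0655 for Hand2. Ano4 was not called in the authors' deposited 6-library table (adjusted p = 0.0775). Fstl4, Otogl and Ano4 were not called in the 4-library table (adjusted p = 0.258, 0.418 and 0.654). For Gsc they were Bmp2, with -0.82 and -0.56, C1qtnf7, with -0.75 and -0.64, and Gria2, with -0.83 and -0.65, of 3510 genes. Here the ratios of the means were 0.418, 0.504 and 0.478, against 0.467 for Gsc. The nearest gene was at a distance of 0.0485 for Gsc and 0.0999 for Hand2.

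Markers of some other cell types moved with genotype in the same libraries, while 0 of 8 endothelial and 0 of 8 epithelial markers were called. Pericyte and smooth muscle had 1 of 8 called, and Schwann cell and melanocyte 1 of 11. Over all genes with an adjusted p in the 6-library table, 2.90% were called, 1.16% lower and 1.75% higher. In the 4-library table this share was 2.30%. Hand2 is also expressed in sympathetic neurons. Th and Dbh, enzymes of catecholamine synthesis that define sympathetic neurons, were near 0, with base means of 0.249 and 1.60. The 6 general neuron markers summed to 284 to 335 normalised reads in mutant libraries and 458 to 795 in wildtype libraries, with 3 of them called lower, Tubb3, Dcx and Elavl4, and 1 in the 4-library table. Cranial mesenchyme markers had 4 of 7 called lower, Prrx1, Twist1, Shox2 and Lhx8, while Pdgfra, the most abundant of them, had a value above 0. The authors' deposited 6-library table gives Pdgfra 0.20 (log2, adjusted p = 0.335), and in the 4-library table it was called higher, at 0.23 (adjusted p = 0.0473). The reads of Pdgfra and Prrx1 per library were not recovered, so the list has no sum. Muscle had 5 of 7 called higher, Myog, Myod1, Tnnt1, Actc1 and Des, and 2 in the 4-library table, with sums of 1772 to 4988 in mutant libraries and 748 to 1145 in wildtype libraries, and Myh3 was the most abundant. Myh3 had 967, 3555 and 1424 normalised reads in mutant libraries A, B and C, against 326, 559 and 664 in wildtype libraries A, B and C. Mutant library B stood far above the rest, and the ratio of the means was 3.84. The authors' deposited table gives Myh3 a moderated log2 fold change of 0.32 (adjusted p = 0.133), whereas limma gave 1.78 (adjusted p = 0.0419). Macrophages had 3 of 5 called higher, Csf1r, Adgre1 and Mrc1, and 2 in the 4-library table, with sums of 785 to 938 in mutant libraries and 482 to 628 in wildtype libraries. The part of these cell types in the values of Hand2 and Gsc was not tested.

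**Figure D5:**
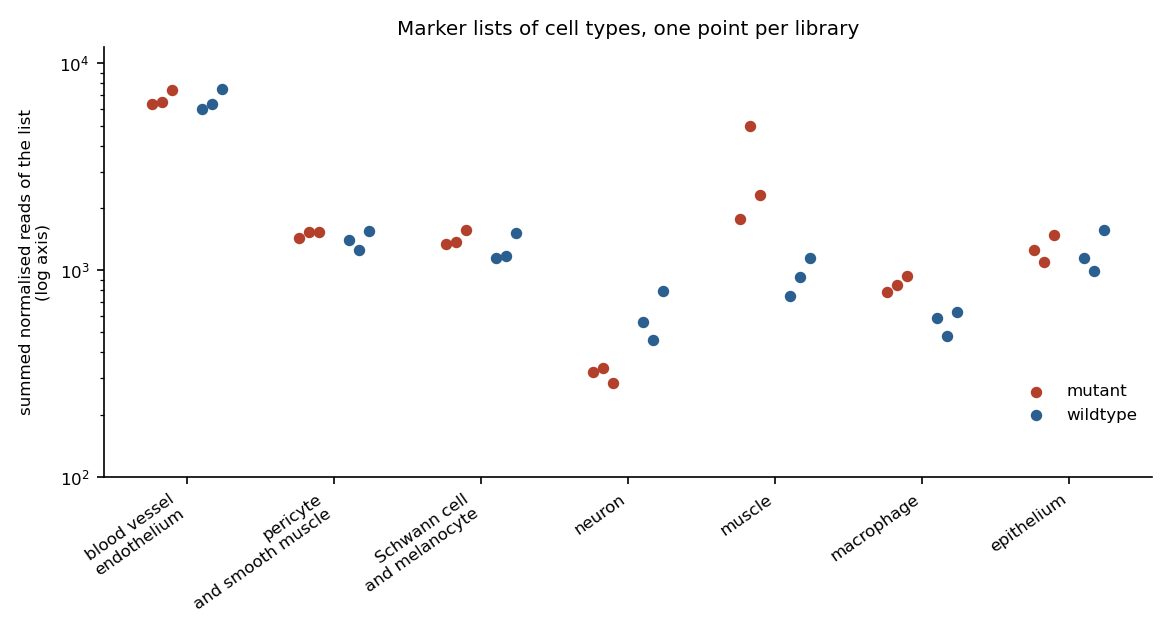
Summed normalised reads (log axis) of the marker genes of each cell type, with a point per library and mutant libraries (red) left of wildtype libraries (blue); Pdgfrb, whose reads were not recovered, is left out of the pericyte and smooth muscle sum. Muscle and macrophage sums are higher in all 3 mutant libraries, neuron sums are lower, and endothelial, epithelial, pericyte and Schwann cell sums overlap between genotypes.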

How the data were processed

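Per the labels' protocols, RNA from RNeasy Micro Plus columns was copied to cDNA and amplified before TruSeq RNA v2 library preparation. The submitters' processing notes name HISAT2, featureCounts, DESeq2, GRCm38 and mm10; tool versions and strand settings: not given in the sources used here. The authors deposited a base mean per gene, a signal averaged over libraries after division of the reads by size factors. Fold changes and SEs are log2 values in the tables the authors deposited. The Wald statistic is a score, deposited by the authors. Each p-value, raw or adjusted, comes from the DESeq2 Wald test of the authors, and a gene was called at an adjusted p under 0.05. By the series' design text, every table would compare a single pair of libraries. The tables instead hold 6 libraries (3 against 3), 4 of the same libraries, and a subset of rows of the first.

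Genes with 1 read in the whole study take 6 levels of base mean, which give the size factors of the 6 libraries, and the sign of their fold change puts each library on its side of the comparison. Whole reads per library were then found that give both base means of a gene, for genes with a 4-library base mean up to 4000. Of 20970 genes, 254 had several solutions, 33 had none and 543 were not searched. Size factors recomputed from the recovered reads differed by at most 0.249% from those used (0.775 to 1.44), and recovered and deposited log2 fold changes had a Spearman rho of 0.997 across 9822 genes whose base mean was 100 or more, a description across genes, which are not independent replicates. The procedure was tested on simulated data. Normalised reads are reads divided by size factors. The planned test for files holding counts was not used, because no file holds counts per library; limma 3.58.1 (R 4.3.3, trend) on log2 of normalised reads plus 1, for 13759 genes with recovered reads whose base mean was 10 or more, was added after the data were seen. Intervals on read ratios are exact (Clopper-Pearson, 95%) and cover counting error only, since amplified reads without molecular identifiers are not independent molecules. The labels call the samples of a genotype biological replicates but name no embryos or litters, so p-values measure the spread between these samples.

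The members, lists and alternatives were chosen with earlier results of these data known. Named genes are the members, Meis2, each list gene called in the 6-library table, the most abundant gene of each list and the 3 nearest genes of each called member. Besides these, Sox10, Fabp7, Erbb3, Mitf, Msx1, Tyr, Th, Dbh, Dlx5 and Dlx6 were named after their values were seen. Of the genes this rule takes, 2 are not reported here, and the sum of the sympathetic neuron markers is therefore not given.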

Additional observations from a re-analysis of the deposited data

How the results depend on the processing

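Hand2 and Gsc were called lower under 14 of 15 settings tried, and with a base mean of at least 100 required before adjustment the count was 1, Gsc, because Hand2 leaves the test. The 7 pathway genes called outside the members became 4 with 4 libraries, 3 with limma and 3 with limma at a pseudocount of 0.5, and 0 to 4 with each library left out in turn (limma), with the 0 reached without wildtype library A and without wildtype library B. The cause was not tested. Ece1 turned to 0.06 on the log2 scale without wildtype library C, within -0.12 to 0.06 with each library left out. After centring on the median of -0.01, the deposited value of Hand1 turned to 0.0015, a gene with 3 reads. The other values of the 8 members kept their direction and their side of the threshold. Of Meis2 and the list genes named, Meis2 and Pdgfra were called in the deposited 4-library table and not in the 6-library table, and the reverse held for Camk2d, Nr2f2, Tle1, Myod1, Actc1, Des, Adgre1, Tubb3 and Elavl4. By limma, Myh3 was called, and Camk2d, Twist1, Tle1, Des, Adgre1, Tubb3, Elavl4 and Lhx8 were not. No paired analysis was possible because the replicate numbers of the libraries in the deposited tables are not known. Few reads limit Edn1, Hand1 and Hand2, and amplification before library preparation can add noise there.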

Other observations

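In the cell type lists, 2 genes were called higher that mark cells in which endothelin receptors are known to act, and each was the only called gene of its list. Acta2, an actin of smooth muscle, averaged 450.0 ± 43.7 normalised reads in mutant libraries and 247 ± 10.8 in wildtype libraries (SD, n = 3 each), and the authors' deposited table gives 0.71 as its log2 fold change (adjusted p = 8.87e-08). It was the called gene among 8 pericyte and smooth muscle markers, whose sum, over the 7 with recovered reads, was 1438 to 1532 normalised reads in mutant libraries and 1250 to 1543 in wildtype libraries. Pdgfrb, the most abundant of that list, had 0.13 there (adjusted p = 0.689). Of the 8 markers, 4 had a deposited log2 fold change below 0 and 4 above 0. Kit, a receptor of melanocyte precursors, mast cells and other cells, averaged 652 ± 67.4 normalised reads in mutant libraries and 406 ± 43.9 in wildtype libraries (SD, n = 3 each), and the authors' deposited table gives 0.57 (log2) for it (adjusted p = 3.07e-05). The other 10 Schwann cell and melanocyte markers did not rise with it. They summed to 724 to 837 normalised reads in mutant libraries and 757 to 1053 in wildtype libraries.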
